A study of Caenorhabditis elegans with 10 samples.

Results

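The fatty acid desaturase genes of Caenorhabditis elegans, fat-1 to fat-7, were followed through RNA-seq libraries of whole animals from 5 strains, with 2 libraries per strain. The 7 genes were taken by name from the 46904 genes of the deposited count tables and not by their values. Wild-type animals (WT) were compared with a strain that carries unc-104(R9Q), a substitution in the kinesin that carries synaptic vesicle precursors along axons. The other 3 strains carry R9Q together with a genetic suppressor: R9Q_T102I and R9Q_G265R have a further substitution in the same protein, and R9Q_unc-16 has a mutation in unc-16, which encodes a JIP3-like motor adaptor. None of the animals was treated, and the labels give no age, stage, sex or unc-16 allele. Nor do they name the cultures behind the 2 libraries of a strain: p-values here rest on the variation between libraries, which may be technical.

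Desaturases place double bonds in fatty acyl chains and so set how fluid membranes are and which polyunsaturated fats an animal can make. In C. elegans the delta-9 enzymes act first: FAT-5 prefers palmitoyl-CoA, and FAT-6 and FAT-7 act mainly on stearoyl-CoA to give oleate. FAT-2, the delta-12 enzyme, then turns oleate into linoleate, FAT-1 adds the omega-3 bond, and FAT-3 (delta-6) and FAT-4 (delta-5) lead on to the long polyunsaturated fats. The worm expresses the delta-9 genes largely in the intestine. There the nuclear receptors NHR-49 and NHR-80, the mediator subunit MDT-15 and the transcription factor SBP-1 are known to drive their transcription.

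Levels are given in CPM, the counts assigned to a gene scaled to a common library size. The libraries held 6239272 to 7160785 counts assigned to a transcript. Reads that fell in more than 1 transcript were not counted, and these were 57.7 to 61.8% of aligned reads. In 3 libraries, R9Q_T102I replicate 1, R9Q_G265R replicate 2 and R9Q_unc-16 replicate 2, genes of the mitochondrial genome took under 0.1% of counts, against 1.58 to 5.51% in the other 7. The 2 libraries of a strain differed by more than 2-fold at 5.29% of tested genes in WT and 4.02% in R9Q, but at 20.8% in R9Q_T102I, 35.4% in R9Q_G265R and 38.0% in R9Q_unc-16. Chi-square per degree of freedom between the 2 libraries of a strain was 1.92 in WT and 2.13 in R9Q. It was 69.0 in R9Q_T102I, 159 in R9Q_G265R and 173 in R9Q_unc-16. The test shares 1 estimate of the spread per gene between all strains, so p-values for the suppressed strains can be too small. Those for R9Q against WT can be larger than the WT and R9Q libraries alone would give. Whether these 2 pairs sample differences between cultures is not known.

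The counting decided which desaturases could be measured. 3 of the 7 genes have a single transcript and were counted along their length, namely fat-1, fat-5 and fat-7. fat-1 (WBGene00001393, ce11, chromosome IV, 13315644 to 13318811, plus strand, 1416 exonic bases) had 4470 to 21202 counts per library. fat-5 (WBGene00001397, chromosome V, 17725004 to 17726818, plus strand, 1104 exonic bases) had 249 to 2569, and 28 of its bases overlap the neighbouring genes W06D12.8 and twk-42. fat-7 (WBGene00001399, chromosome V, 7151353 to 7153146, minus strand, 1126 exonic bases) had 17 to 329.

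The other 4 genes have several overlapping transcripts and were almost or wholly uncounted. fat-2 (WBGene00001394), the delta-12 gene, lies 5061 bases from fat-1 on chromosome IV, from 13323873 to 13326395, and had 0 counts on its 4 transcripts in all 10 libraries. fat-3 (WBGene00001395, chromosome IV, 9803023 to 9806119), the delta-6 gene, also had 0 counts on its 6 transcripts in all 10. Its delta-5 neighbour fat-4 (WBGene00001396, 9799429 to 9802226), 796 bases away on the same strand, was counted on only 1 of 6 transcripts. fat-4 had 6 and 11 counts in WT, 16 and 11 in R9Q, 3 and 12 in R9Q_T102I, 14 and 0 in R9Q_G265R and 7 and 10 in R9Q_unc-16. fat-6 (WBGene00001398, chromosome IV, 11913692 to 11915687, minus strand), the other stearoyl-CoA desaturase gene, was counted on 2 of 7 transcripts. fat-6 had 2 and 6 counts in WT, 14 and 12 in R9Q, 8 and 5 in R9Q_T102I, 2 and 0 in R9Q_G265R and 1 and 7 in R9Q_unc-16. A count of 0 allows up to 3 counts, or 0.387 to 0.503 CPM, but here 0 does not measure the mRNA: reads shared by a gene's own transcripts were left out. 5 of the 7 genes passed the filter on low counts, and fat-6 reached 10 counts only in the R9Q libraries, so neither its test nor a count over the tested members can support a difference. fat-6 and fat-7 are close paralogs, and reads that match both could not be placed with certainty.

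Among the delta-9 genes, fat-7 was lowest in R9Q and highest in R9Q_T102I. It measured 22.04 and 20.7 CPM in WT and 2.495 and 2.707 CPM in R9Q. In R9Q_T102I it measured 48.0 and 46.8 CPM, in R9Q_G265R 5.60 and 9.73 CPM, and in R9Q_unc-16 3.53 and 8.30 CPM. Every library of the 3 suppressed strains therefore lay above both R9Q libraries, only those of R9Q_T102I lay above WT, and R9Q_G265R and R9Q_unc-16 overlapped each other. In whole animals, fewer cells that express a gene and less RNA per cell cannot be told apart.

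The R9Q strain had 8.15-fold less fat-7 than WT, a log2 fold change of −3.03 (SE 0.48, 95% interval −4.13 to −1.93). This did not pass in edgeR's quasi-likelihood test, with an adjusted p of 0.0646 over 12267 genes (Benjamini-Hochberg). In R9Q_T102I fat-7 rose 18.1-fold over R9Q, a log2 fold change of 4.18 (SE 0.50, 3.03 to 5.32, adjusted p = 0.0183 in edgeR). Against R9Q the log2 fold change was 1.55 in R9Q_G265R (SE 0.46, 0.48 to 2.62, edgeR adjusted p = 0.389). For R9Q_unc-16 it was 1.18 (SE 0.46, 0.12 to 2.25, edgeR adjusted p = 0.22). The gene also stayed under its WT level in both of these strains, by −1.48 (−2.50 to −0.45, edgeR adjusted p = 0.251) in R9Q_G265R and −1.84 (−2.88 to −0.81, edgeR adjusted p = 0.0592) in R9Q_unc-16, and neither difference passed.

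fat-5, the palmitoyl-CoA desaturase gene, had the same 2 extremes with a wider spread. It measured 134 and 121 CPM in WT and 54.8 and 42.5 CPM in R9Q. In R9Q_T102I the 2 libraries gave 404 and 289 CPM. The remaining strains did not give a stable level, with 217 and 41.8 CPM in R9Q_G265R, a 5.203-fold gap, and 143 and 36.6 CPM in R9Q_unc-16, a 3.91-fold gap. In both strains the lower value came from the library with under 0.1% mitochondrial counts, and it lay below both R9Q libraries while its partner lay above both WT libraries. In R9Q_T102I the library with few mitochondrial counts had the higher fat-5 value; the part of this difference between libraries in the result was not tested.

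No fat-5 contrast passed the test. The log2 fold change was −1.39 in R9Q against WT (SE 0.80, −3.23 to 0.45, edgeR adjusted p = 0.837) and 2.83 in R9Q_T102I against R9Q (SE 0.83, 0.90 to 4.76, edgeR adjusted p = 0.253). The 2 groups of libraries did not overlap in these contrasts or in R9Q_T102I against WT (1.44, edgeR adjusted p = 0.581). In the 4 contrasts with R9Q_G265R or R9Q_unc-16 they overlapped, and the sign of fat-5 depended on which library was kept. Without R9Q_G265R replicate 1 its log2 fold change against R9Q went from 1.41 to −0.19, and without R9Q_unc-16 replicate 1 from 0.88 to −0.37.

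**Figure D1:**
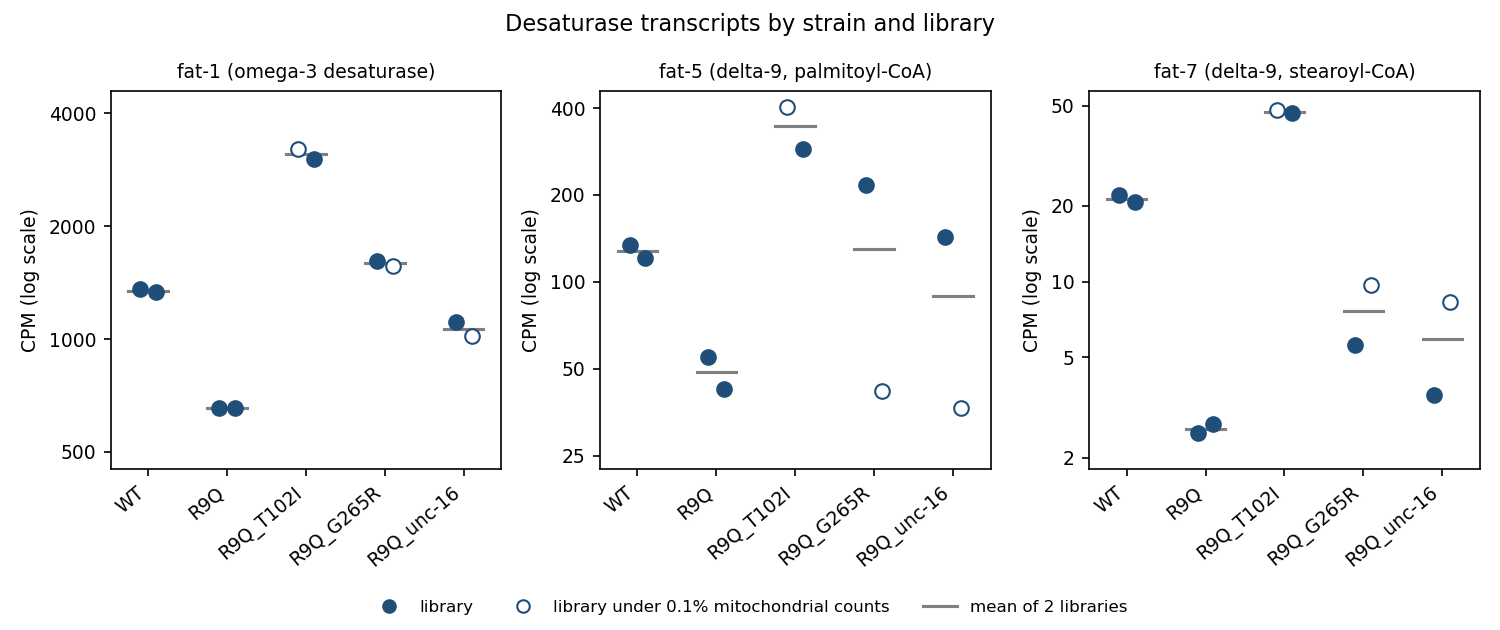
Levels of fat-1, fat-5 and fat-7 in CPM on log axes, 1 point per library and a grey line at the mean of the 2 libraries of each strain; open points are the libraries with under 0.1% mitochondrial counts. R9Q has the lowest mean of each gene and R9Q_T102I the highest, and the 2 libraries of R9Q_G265R and R9Q_unc-16 lie far apart for fat-5 and close together for fat-1.

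Of the enzymes that act after the delta-9 step, fat-1 could be compared between strains. It encodes the omega-3 desaturase, which turns omega-6 into omega-3 fatty acids. It measured 1359 and 1334 CPM in WT, 656 and 655 CPM in R9Q, and 3215 and 3014 CPM in R9Q_T102I. The R9Q_G265R libraries gave 1615 and 1565 CPM and the R9Q_unc-16 libraries 1108 and 1017 CPM. No 2 strains overlapped, and the order from low to high was R9Q, R9Q_unc-16, WT, R9Q_G265R and R9Q_T102I. How many of all genes separate every strain in this way was not counted. Separation of 2 strains was common: both R9Q libraries lay below both WT libraries at 32.6% of tested genes. The 2 libraries of a strain differed by 1.002- to 1.09-fold, also where 1 of them had few mitochondrial counts.

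fat-1 was 2.05-fold lower in R9Q than in WT, a log2 fold change of −1.04 (SE 0.21, −1.52 to −0.56) that did not pass in edgeR's quasi-likelihood test (adjusted p = 0.13). It rose 4.75-fold in R9Q_T102I over R9Q, by 2.25 on the log2 scale (SE 0.21, 1.75 to 2.75, edgeR adjusted p = 0.00942). In R9Q_G265R the difference from R9Q was 1.28 (SE 0.21, 0.80 to 1.76, edgeR adjusted p = 0.171). In R9Q_unc-16 it was 0.70 (SE 0.21, 0.22 to 1.17, edgeR adjusted p = 0.14). Against WT, fat-1 differed by 1.21 in R9Q_T102I (edgeR adjusted p = 0.108), by 0.24 in R9Q_G265R (−0.24 to 0.72, edgeR adjusted p = 0.685) and by −0.34 in R9Q_unc-16 (−0.82 to 0.13, edgeR adjusted p = 0.37). None of these 3 differences passed, and the intervals for R9Q_G265R and R9Q_unc-16 include 0.

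Counted over the members, 0 of the 5 tested passed in R9Q against WT, where 0.310% of all tested genes were called. At an unadjusted p under 0.05 stood 2 members and 7.67% of genes, and DESeq2's Wald test called fat-1 and fat-7 and 2.03% of genes. fat-1, fat-5 and fat-7 had both R9Q libraries below both WT libraries, as had 32.6% of all tested genes. In R9Q_T102I against R9Q, fat-1 and fat-7 passed, both higher, beside 0.562% of genes called in either direction and 0.375% called higher. The lack of overlap alone was common there too, since 27.9% of tested genes had both R9Q_T102I libraries above both R9Q libraries. These 2 contrasts share the R9Q libraries, so low values there enter both.

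In R9Q_G265R against R9Q 0 members were called in edgeR, as were 0% of genes. At an unadjusted p under 0.05 stood 3 members, fat-6 among them, and 8.71% of genes, and DESeq2 called fat-1 and 1.87% of genes. fat-1 and fat-7 lay above R9Q in both R9Q_G265R libraries, as did 21.2% of genes. In R9Q_unc-16 against R9Q 0 members were called in edgeR beside 0.668% of genes. There 2 members and 19.1% of genes had an unadjusted p under 0.05, and DESeq2 called fat-1 and 9.15% of genes. Both libraries were higher at 22.8% of genes, fat-1 and fat-7 among them. Against WT, edgeR called 0 members in R9Q_T102I, R9Q_G265R and R9Q_unc-16, beside 0.0978%, 0.465% and 4.46% of genes. At an unadjusted p under 0.05 these 3 contrasts had 2, 1 and 1 members, beside 10.6%, 12.6% and 23.2% of genes. DESeq2 called 1, 0 and 1 members, beside 2.98%, 3.72% and 13.5% of genes. Both libraries lay above WT at 28.3% of genes in R9Q_T102I, where fat-1, fat-5 and fat-7 did so, and below WT at 25.8% and 31.9% in the other 2 strains, where fat-7 did so in both and fat-1 in R9Q_unc-16. In R9Q_G265R fat-1 lay above WT, as did 23.0% of genes. For fat-4 and fat-6 the lowest adjusted p over the 7 contrasts was 0.463 in edgeR, on counts that do not reach 17 in any library. Where their libraries did not overlap they went the other way. fat-6 lay above WT in R9Q and below R9Q in all suppressed strains, and fat-4 lay below R9Q in R9Q_unc-16. These counts are too low to support a difference.

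In the fit of all strains, the 2 calls did not hold under every omission of 1 library. Leaving out any 1 of the WT, R9Q or R9Q_T102I libraries ended both in edgeR, with adjusted p of 0.0662 to 0.24 for fat-1 and 0.0827 to 0.397 for fat-7. The fold changes barely moved, from 2.16 to 2.30 for fat-1 and from 4.12 to 4.24 for fat-7 over all 10 omissions. In R9Q against WT the fold changes moved as little, from −1.05 to −1.025 for fat-1 and from −3.085 to −2.97 for fat-7. Whether these 2 genes passed there depended on the library left out, and each omission leaves 1 library in a strain. With only the 4 libraries of WT and R9Q, edgeR called fat-1, fat-5 and fat-7 lower, among 4158 genes called in all, or 37.7% of the 11031 tested. With only the 4 libraries of R9Q and R9Q_T102I it called the same 3 genes higher in R9Q_T102I. There 820 genes were called in all, or 7.29% of the 11246 tested.

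**Figure D2:**
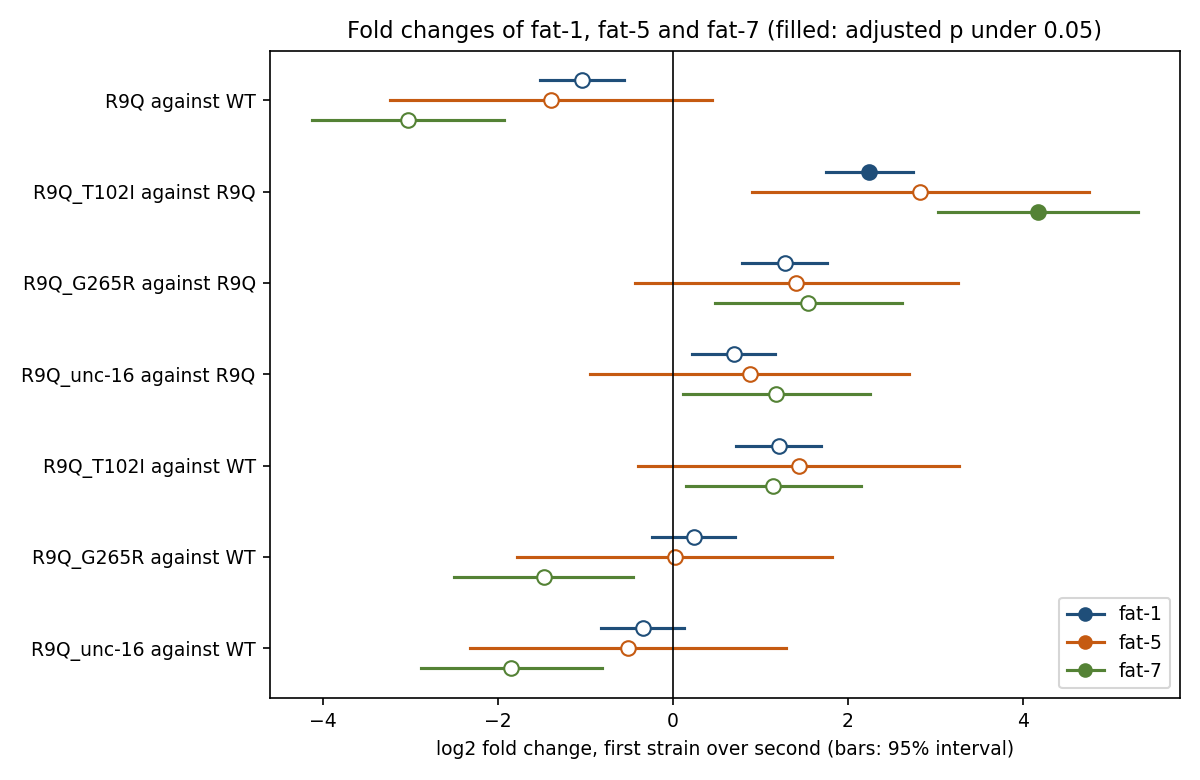
Log2 fold changes of fat-1, fat-5 and fat-7 in the 7 contrasts from edgeR, with bars for 95% intervals and filled points for an adjusted p under 0.05. Only fat-1 and fat-7 in R9Q_T102I against R9Q are filled, at 2.25 and 4.18, and the fat-5 bars are the widest.

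Set per length, the omega-3 gene was far above the delta-9 genes. In WT fat-1 averaged 951 CPM per kilobase of exon, fat-5 116 and fat-7 18.96. In R9Q these levels were 463, 44.1 and 2.31, and in R9Q_T102I 2200, 314 and 42.1. R9Q_G265R had 1123, 117 and 6.81, and R9Q_unc-16 750, 81.2 and 5.26. The order of the 3 genes was the same in all 5 strains, and levels of the 4 uncounted genes cannot be placed in it.

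Relative to fat-1 within the same library, the 2 delta-9 genes behaved differently. The library held 1.62 and 1.55 fat-7 counts per 100 fat-1 counts in WT, 0.38 and 0.413 in R9Q and 1.49 and 1.55 in R9Q_T102I. In R9Q_G265R the ratio was 0.347 and 0.622, and in R9Q_unc-16 0.319 and 0.817. So the fat-7 ratio in R9Q_T102I overlapped that of WT, while those of R9Q_G265R and R9Q_unc-16 spanned the R9Q values and stayed below WT. For fat-5 the ratio was 9.87 and 9.08 per 100 fat-1 counts in WT, 8.35 and 6.50 in R9Q, and 12.6 and 9.58 in R9Q_T102I. It was 13.5 and 2.67 in R9Q_G265R and 12.9 and 3.60 in R9Q_unc-16. Both fat-5 ratios of R9Q thus lay below those of WT and R9Q_T102I, and in R9Q_G265R and R9Q_unc-16 it separated the libraries rather than the strains. With 2 libraries against 2, an exact permutation test cannot go below 0.333, so the ratios are given without a test.

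The ratio between the 2 delta-9 genes varied as well. fat-7 made up 16.4 and 17.1 counts per 100 fat-5 counts in WT and 4.56 and 6.36 in R9Q. In R9Q_T102I it made up 11.9 and 16.2. In R9Q_G265R the 2 libraries gave 2.58 and 23.3, and in R9Q_unc-16 2.47 and 22.7, the library with few mitochondrial counts being the higher in each. The strain mean of R9Q_G265R or R9Q_unc-16 therefore describes neither of its libraries.

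As a single measure, the mean log2 CPM of the 3 delta-9 genes minus that of the other 4 was 1.85 in WT, 0.99 in R9Q, 2.67 in R9Q_T102I, 1.03 in R9Q_G265R and 0.98 in R9Q_unc-16. The changes were −0.86 from WT to R9Q, 1.67 from R9Q to R9Q_T102I, 0.04 from R9Q to R9Q_G265R and −0.02 from R9Q to R9Q_unc-16. It includes 4 genes that were hardly counted. With fat-5 and fat-7 against fat-1 only, chosen after seeing the data, the changes were −1.11, 1.18, −0.08 and 0.09. The first 2 changes have the same sign in both forms, negative from WT to R9Q and positive from R9Q to R9Q_T102I. Both forms share fat-1, fat-5 and fat-7, so neither form is a check of the other. The last 2 were near 0 and differ in sign between the forms. In the first form, fat-6 weighs as much as fat-5 or fat-7. It had 14 and 12 counts in R9Q, 2 and 0 in R9Q_G265R and 1 and 7 in R9Q_unc-16. The near-0 values of that form thus depend on genes that were hardly counted. With medians in place of means they were not near 0.

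**Figure D3:**
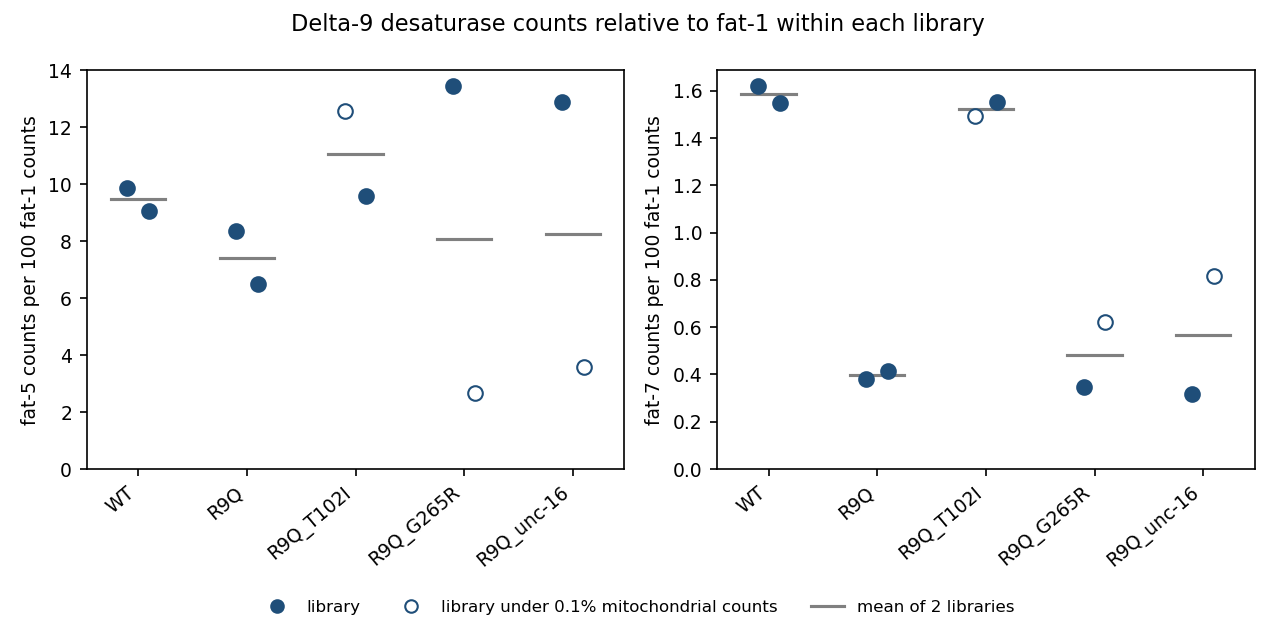
Counts of fat-5 (left) and fat-7 (right) per 100 counts of fat-1 in each library, with grey lines for the mean of 2 libraries and open points for libraries with under 0.1% mitochondrial counts. The fat-7 ratio is 1.49 to 1.62 in WT and R9Q_T102I and at most 0.817 in the other 3 strains, and the fat-5 ratio of R9Q lies below those of WT and R9Q_T102I, while the libraries of R9Q_G265R and R9Q_unc-16 span the other strains.

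Genes that work beside the desaturases were read from lists chosen by function. Elongases, which lengthen the chains that desaturases act on, had 6 of 11 members tested and 0 called in either R9Q against WT or R9Q_T102I against R9Q, with median log2 fold changes of −0.26 and 0.38. The median over all genes was 0.00 in both contrasts. The elongase with the largest difference in both was elo-4, at 1.22 and 1.24 CPM in WT, 1.76 and 2.19 in R9Q and 8.34 and 8.24 in R9Q_T102I (edgeR adjusted p = 0.605 for the last step). Of the genes for making palmitate and its precursors, 3 of 6 were tested, 0 were called, and the medians were −0.27 and 0.27. The fatty acid synthase gene fasn-1 had 1766 and 1807 CPM in WT and 1377 and 1362 CPM in R9Q, a log2 fold change of −0.38 (edgeR adjusted p = 0.976). Among them acly-2, an ATP citrate lyase gene, had 41.2 and 40.2 CPM in R9Q and 135 and 125 CPM in R9Q_T102I, a log2 fold change of 1.67 (edgeR adjusted p = 0.158).

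The known regulators of the delta-9 genes could be measured only in part. The counts summed over all 10 libraries were 7 for nhr-49, 13 for nhr-80 and 0 for mdt-15 and nhr-13, so nothing can be said of their levels. sbp-1 was well counted, with 281 and 275 CPM in WT and 264 and 264 CPM in R9Q (log2 fold change −0.07), and 0 of the 6 tested regulators was called in either of these contrasts. The list's medians were −0.22 and −0.25, and its largest differences were those of the membrane fluidity sensor gene paqr-2 in the first (−0.39, edgeR adjusted p = 0.768) and of skn-1 in the second (−0.73, edgeR adjusted p = 0.761). The 3 genes that pass electrons to the desaturases were not tested, with at most 21 counts in all.

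Targets of NHR-49 in fatty acid oxidation, the pathway that breaks fats down, had 3 of 8 members tested. ech-1.1, which encodes an enoyl-CoA hydratase of beta-oxidation, had 31.5 and 29.7 CPM in WT, 1.91 and 2.32 in R9Q and 20.8 and 18.6 in R9Q_T102I. It fell by 3.84 on the log2 scale in R9Q (edgeR adjusted p = 0.0417), while its 3.21 in R9Q_T102I over R9Q just missed the threshold (edgeR adjusted p = 0.0501). It rose in R9Q_unc-16 over R9Q, at 38.5 and 15 CPM, by 3.65 (edgeR adjusted p = 0.0386). acs-2, an acyl-CoA synthetase gene that feeds fatty acids into mitochondrial oxidation, had 855 and 876 CPM in WT, 435 and 446 in R9Q and 3521 and 2897 in R9Q_T102I. It rose by 2.87 in R9Q_T102I over R9Q (edgeR adjusted p = 0.0291). hacd-1, a hydroxyacyl-CoA dehydrogenase gene, had the opposite order in R9Q, with 72.8 and 74.1 CPM in WT, 130.3 and 127.5 in R9Q and 124.5 and 92.4 in R9Q_T102I. Its log2 fold change was 0.81 in R9Q against WT (edgeR adjusted p = 0.304) and −0.25 in R9Q_T102I against R9Q (edgeR adjusted p = 0.793). It had 213 and 183 CPM in R9Q_unc-16 and rose there over WT by 1.43 (edgeR adjusted p = 0.0213).

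The lists for building and storing complex lipids had 0 genes called in R9Q against WT or R9Q_T102I against R9Q. Phosphatidylcholine synthesis had 7 of 8 genes tested with medians of −0.40 and −0.12, and pmt-2, a phosphoethanolamine methyltransferase gene, had the largest difference in R9Q against WT, at 568 and 571 CPM in WT and 225 and 245 CPM in R9Q (−1.28, edgeR adjusted p = 0.324). In R9Q_T102I against R9Q it was cept-1, a gene for the last step of phospholipid synthesis, at 1.91 and 2.84 CPM in R9Q and 0.315 and 0.142 CPM in R9Q_T102I, which is under the limit of 3 counts (edgeR adjusted p = 0.129). Triglyceride synthesis and storage had 4 of 8 tested with medians of 0.22 and −0.63, led by acs-22 in the first contrast (1.05, edgeR adjusted p = 1) and the lipase gene lipl-4 in the second (1.80, edgeR adjusted p = 0.363). Of the yolk protein genes only vit-1 was tested, 1 of 6, at 0.06 and 0.86 with no call.

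**Figure D4:**
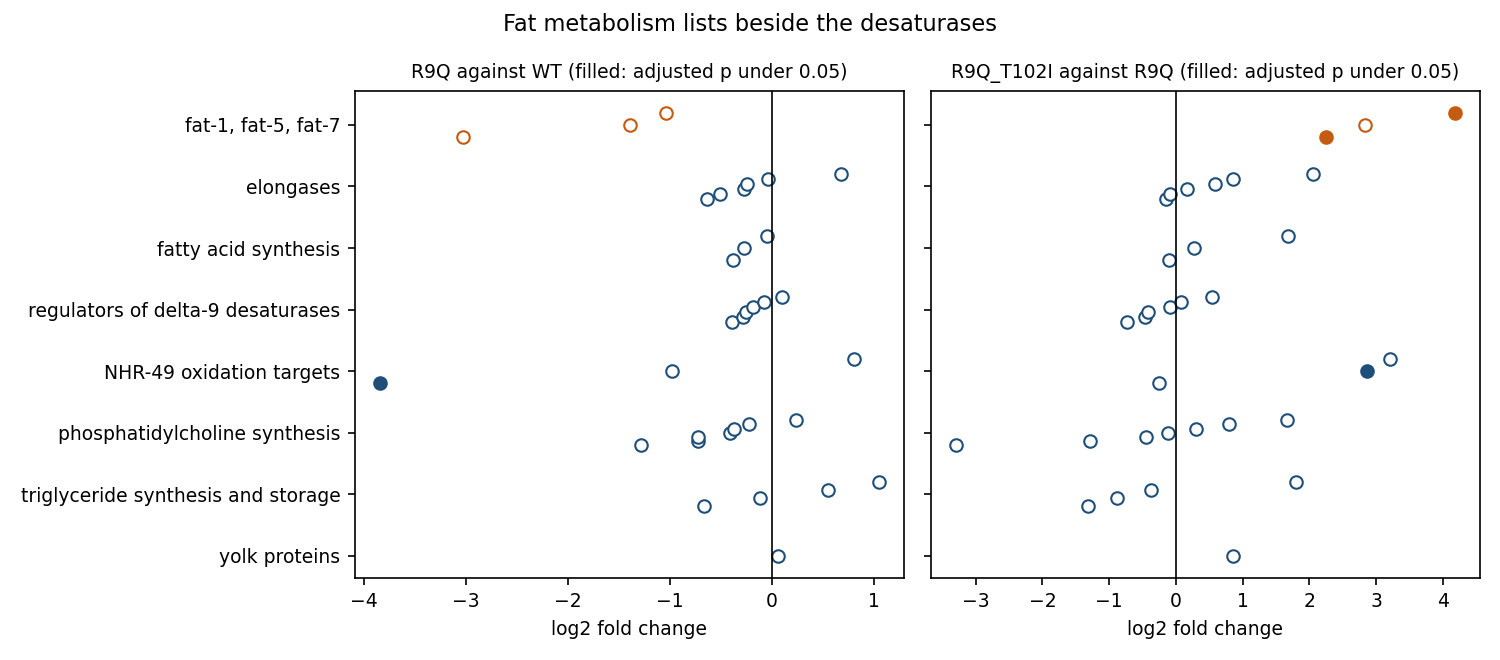
Log2 fold changes of fat-1, fat-5 and fat-7 (top row, orange) and of the tested genes of each function list (blue) in R9Q against WT and in R9Q_T102I against R9Q, filled where the edgeR adjusted p is under 0.05. The desaturases lie at −3.03 to −1.04 on the left and 2.25 to 4.18 on the right, and of the listed genes only ech-1.1 on the left and acs-2 on the right are filled.

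Markers of other tissues and of the molt differed in level between the same strains. Molting genes, which peak before each larval molt, summed to 396 and 391 CPM in WT, 295 and 279 in R9Q and 843 and 897 in R9Q_T102I. All 10 tested of the 14 were above 0 in R9Q_T102I against R9Q, with 0 called and a median of 3.08. In R9Q against WT 4 of them were above 0 and 5 below, with 0 called and a median of −0.12. In R9Q_G265R the molting sum was 264.8 and 745.4 CPM, and in R9Q_unc-16 490 and 2658 CPM. In these 2 strains the library with the higher molting sum had the higher fat-7, the lower fat-5 and slightly lower fat-1 of the pair. It was also the library with few mitochondrial counts. R9Q_T102I did not follow this: its replicate 2 had the higher molting sum, lower fat-7, fat-5 and fat-1, and no shortage of mitochondrial counts. Epidermal markers summed to 1115 and 1096 CPM in WT, 400 and 380 in R9Q, 1842 and 1701 in R9Q_T102I, 1200 and 2105 in R9Q_G265R and 1367 and 1923 in R9Q_unc-16. The R9Q sum was thus lowest here as well. Most of this sum was the cuticle collagen gene col-10, with a log2 fold change of −1.51 in R9Q against WT (edgeR adjusted p = 0.0981). Of the 3 epidermal markers tested of 8, only col-10 was below 0 in that contrast. The other 2 were above 0, and the median was 0.08. col-10 rose over R9Q by 2.12 in R9Q_T102I (edgeR adjusted p = 0.0285) and by 1.86 in R9Q_unc-16 (edgeR adjusted p = 0.0392).

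Intestinal markers, from the tissue where these desaturases are mainly expressed, gave no single direction. They summed to 1835 and 1871 CPM in WT, 3700 and 3659 in R9Q, 1903 and 1923 in R9Q_T102I, 11600 and 1982 in R9Q_G265R and 5813 and 1101 in R9Q_unc-16, with most of the sum from the peptide transporter gene pept-1. Of the 7 tested of 11, 3 were above 0 and 4 below in R9Q against WT, and act-5 was at 0 in all libraries. elt-2, the GATA factor that defines the intestine, measured 159 and 160 CPM in WT, 171 and 172 in R9Q and 145 and 105 in R9Q_T102I, and the esterase gene ges-1 172 and 184 CPM in WT and 166 and 162 in R9Q. Germline, sperm, neuron and muscle markers had 4 of 7, 1 of 6, 3 of 7 and 1 of 5 tested, with 0 called in R9Q against WT or R9Q_T102I against R9Q. The part of molting stage, epidermal share and intestinal share in the desaturase differences was not tested.

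Across the 10 libraries, fat-1 and fat-7 had a shape that few genes had. Both R9Q libraries lay below the other 8 at 523 of the 12267 tested genes, or 4.26%, and both R9Q_T102I libraries lay above the other 8 at 427, or 3.48%. Both held at 46 genes, or 0.375%, fat-1 and fat-7 among them, a pattern chosen after their values were seen. The genes nearest to each member were taken by the root mean square difference of centred log2 CPM over the 10 libraries. Candidates were the 4237 tested genes with a symbol of letters and a number and counts that averaged 50 or more. Genes named only by sequence were not searched. For fat-1 they were mdh-2, a malate dehydrogenase gene, the C-type lectin gene clec-56 and the aspartyl protease gene asp-8, each at 0.32, against a standard deviation of 0.78 in fat-1 itself. For fat-5 they were the aspartyl protease gene asp-16 at 0.48, the acyl-CoA oxidase gene acox-1.2 at 0.60 and str-112 at 0.60, against 1.24. For fat-7 they were the cathepsin B-like gene cpr-8 at 0.39, the glutathione transferase gene gsto-1 at 0.40 and nspc-14 at 0.58, against 1.55. The nearest to fat-4 (sre-23, old-1 and zgpa-1) and fat-6 (nlp-51, dmsr-5 and nlp-17) rest on a handful of counts, and fat-2 and fat-3 have no profile.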

How the data were processed

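The deposited values are counts per transcript, made by the authors from total RNA of whole animals (KAPA RNA HyperPrep libraries, per the labels' protocols). Per the submitters' processing notes the tools were Trim Galore 0.4.4, STAR 2.5.4b and HTSeq 0.9.1, with build ce11; how strand was set, and which annotation release was used, is not given in the sources used here. Of each table's entries, 61451 transcripts were used and the 5 totals of uncounted reads, 80.7 to 83.2% of all reads, left out. Transcripts were matched to the Ensembl WBcel235 annotation, 56781 through their identifier and 4581 through their sequence name (the other 89 held 0.0486% of counts), and counts were summed per gene. All 10 libraries were fitted together in edgeR 4.0.16 (R 4.3.3) with a term per strain, TMM factors (0.899 to 1.095), filterByExpr with a minimum count of 10, and the quasi-likelihood test with 5 residual degrees of freedom. Benjamini-Hochberg adjustment ran over 12267 genes in each of 7 contrasts, and genes under 0.05 are called. CPM uses the TMM factors; scores and profiles add a prior count of 2. The fit was tested on simulated data for R9Q against WT only. The simulation gave all genes and strains the same spread, so it cannot show how the fit handles the unequal spread of these strains. No library repeated another, and counting limits cover counting error only. DESeq2 1.42.0, other scalings, filters, a replicate block, a term for libraries under 0.1% mitochondrial counts and omissions were alternatives.

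The members and lists were chosen with earlier results of these data known. The text names all 7 members, and of each list the members called, or otherwise the 1 with the largest difference, with further genes named for context. The 3 genes nearest in profile to each member are also named. No sequence is printed, since none was used here.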

Additional observations from a re-analysis of the deposited data

How the results depend on the processing

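For fat-1, fat-5 and fat-7 in 7 contrasts, 343 of 420 recomputed values kept direction and call, 56 became called, 12 lost the call and 9 changed sign; all 12 losses and all sign changes are named here or in the report. The 12 losses are the omissions of WT, R9Q or R9Q_T102I libraries for fat-1 and fat-7. The 9 sign changes all concern fat-5: R9Q_G265R against WT moved from 0.02 to −0.013 with upper quartile factors, to −0.0005 with at least 5 CPM in 4 libraries and to −0.34 with a replicate block, and leaving out 1 library gave −1.58 to 0.77 there, −0.19 to 2.16 in R9Q_G265R against R9Q, −0.37 to 1.54 in R9Q_unc-16 against R9Q and −1.76 to 0.15 in R9Q_unc-16 against WT. The last was 0.20 without the 3 libraries under 0.1% mitochondrial counts.

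Numbers of members called are given in the order R9Q against WT, R9Q_T102I, R9Q_G265R and R9Q_unc-16 against R9Q, then these 3 against WT, which were 0, 2, 0, 0, 0, 0 and 0. Without a count filter they were 2, 3, 2, 0, 2, 0 and 1, beside 1.28, 3.16, 1.83, 5.03, 2.39, 2.90 and 6.66% of genes. With DESeq2's Wald test they were 2, 3, 1, 1, 1, 0 and 1, beside 2.03, 3.83, 1.87, 9.15, 2.98, 3.72 and 13.5% of genes. With a mitochondrial term they were 2, 3, 1, 1, 1, 1 and 1, beside 1.83, 4.02, 1.03, 12.5, 3.20, 5.44 and 20.5% of genes. With at least 5 CPM in 4 libraries R9Q against WT had 1, beside 0.680% of genes. With only the 4 libraries of a contrast they were 3, 3, 0, 0, 3, 0 and 0. Beside these stood 37.7, 7.29, 0, 0, 4.07, 0 and 0% of genes. Without the 3 libraries under 0.1% mitochondrial counts each contrast had 3 (fat-6 in place of fat-7 in R9Q_unc-16 against R9Q), beside 32.5 to 54.2% of 12989 genes, but each suppressed strain then has 1 library, assumed to vary like WT and R9Q. Leaving out 1 library gave 0 to 2 in R9Q against WT and R9Q_T102I against R9Q, 0 to 1 in R9Q_T102I and R9Q_unc-16 against WT, and 0 in the others; an arm left with 1 library is assumed to vary like the rest. The number of all genes called, of those each setting tested, moved with them. In R9Q against WT it went from 38 of 12267 to 249 of 12267 (DESeq2), 322 of 25122 (no filter), 58 of 8535 (stricter filter), 225 of 12267 (mitochondrial term), 4158 of 11031 (4 libraries), 4224 of 12989 (3 libraries out) and 3 of 12267 (replicate block). In R9Q_T102I against R9Q it went from 69 to 470, 795, 99, 493, 820 (of 11246), 4675 and 24. Why these counts moved was not tested.

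Replicate numbers did not pair the samples, with correlations of deviations between strains from −0.636 to 0.605. Those with WT or R9Q lay between −0.029 and 0.025. The large ones were R9Q_T102I with R9Q_G265R (−0.636), R9Q_T102I with R9Q_unc-16 (−0.455) and R9Q_G265R with R9Q_unc-16 (0.605). The library with few mitochondrial counts is replicate 1 in R9Q_T102I and replicate 2 in R9Q_G265R and R9Q_unc-16. With the replicate block, 2 members were called in R9Q_T102I against R9Q, fat-1 and fat-7 (edgeR adjusted p = 0.0383 for both), and 0 in each other contrast.

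The delta-9 minus other measure changed from −0.86 in R9Q against WT to −0.81 with a prior count of 0.5, −3.13 with medians and −1.11 with 3 genes. In R9Q_T102I against R9Q it was 4.43 with medians and 1.18 with 3 genes. In R9Q_G265R against R9Q it was −0.10, 2.06 and −0.084 for these 3 settings, and in R9Q_unc-16 against R9Q −0.14, 1.24 and 0.088. Depth limits fat-4 and fat-6, at 0 to 16 counts, and also fat-7, at 17 to 62 counts in R9Q, R9Q_G265R and R9Q_unc-16.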
